A study of Mus musculus with 16 samples.

Results

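Transcripts of 10 transporter genes were followed in splenic CD4 T cells of mice with and without a transplanted lymphoma. The genes were taken by name and not by their values, though earlier results of these data were known. They were the glucose transporters Slc2a1 and Slc2a3, and the large neutral amino acid transporters Slc7a5 and Slc7a6 with their shared heavy chain Slc3a2. With them went the glutamine and small neutral amino acid transporters Slc1a5, Slc38a1 and Slc38a2, and the lactate transporters Slc16a1 and Slc16a3. All 10 symbols were found among the 23479 genes of the count table, and all 10 were among the 18430 genes that passed the expression filter and were tested.

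These membrane proteins set how much fuel enters and leaves a T cell. Resting CD4 T cells keep most of them low; antigen receptor signalling, Myc and mTORC1 raise glucose, leucine and glutamine uptake as the cell grows and divides, and lactate made by glycolysis leaves through monocarboxylate transporters. Slc7a5 and Slc7a6 reach the cell surface only when bonded to Slc3a2, and Slc16a1 and Slc16a3 need the chaperone Bsg, so a transcript level is not a measure of transport.

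Bulk RNA-seq libraries came from CD4 T cells of C57BL/6 mouse spleen, prepared by immunomagnetic negative selection, which removes other cells and leaves the wanted cells untouched. The control group held 5 libraries from mice that bore no tumour (day 0). The tumour groups held 7 libraries taken 7 days and 4 libraries taken 14 days after transplant of Eu-Myc lymphoma cells, which are B-lineage tumour cells that carry a Myc transgene under an immunoglobulin heavy chain enhancer. Those cells were implanted and the T cells came from the host; the age and sex of the mice, the number of tumour cells and any treatment of the controls are not given in the sources used here. The study's description counts the samples as mice. In bulk RNA, fewer cells of a type and less RNA per cell cannot be told apart.

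Reads assigned to genes numbered 14493764 to 27340070 per library. Summed T cell markers (7 of 8 listed genes in the table) ran from 2517 to 5779 CPM (reads of a gene scaled to library size, with TMM factors), and Cd4 from 781 to 1802 CPM. The CD8 marker sum did not exceed 17.6 CPM, with Cd8b1 at 5.44 to 16.5 CPM. B cell markers summed to 14.4 to 90.3 CPM. Myeloid and neutrophil markers summed to 969 CPM in control library 1, 2717 in control library 2 and 1484 in day 14 library 4, against at most 86.0 in the other libraries. Erythroid and platelet markers summed to 64.8 and 179 CPM in control libraries 1 and 2, against at most 31.7 in the others. Klf1 of that list reached 60.2 CPM in control library 2. The 4 globin genes of that list were at 0 throughout, and whether they were counted at all was not tested. Summed dividing-cell markers were 1932 and 4421 CPM in control libraries 1 and 2. They were 1313, 1026 and 2125 CPM in day 14 libraries 2, 3 and 4, against at most 741 in the other libraries. Xist was abundant in 10 libraries (3 control, 5 day 7, 2 day 14) and did not exceed 9.32 CPM in the remaining 6: controls 1 and 2, libraries 6 and 7 of day 7, and libraries 1 and 4 of day 14.

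On a scale that divides CPM by the length of the merged exons, Slc3a2 was the most abundant transporter in every group, with a control mean of 55.8 ± 21.5 CPM per kb (SD, n = 5), a day 7 mean of 53.2 ± 13.5 (n = 7) and a day 14 mean of 37.1 ± 5.18 (n = 4). In controls it was followed by Slc7a5 at 24.8 ± 9.91, Slc38a2 at 23.0 ± 5.83 and Slc1a5 at 22.9 ± 2.42 CPM per kb, 3 genes whose intervals of mean ± SD overlapped; that of Slc7a5 also reached the interval of Slc3a2. Next came Slc2a1 at 12.8 ± 2.04, Slc38a1 at 10.8 ± 0.356, Slc16a1 at 8.77 ± 4.79 and Slc7a6 at 6.55 ± 1.08 CPM per kb, and each of these overlapped its neighbour. Slc2a3 at 4.24 ± 0.503 and Slc16a3 at 0.978 ± 0.738 CPM per kb lay apart from their neighbours in that order. At day 7 Slc7a5 averaged 15.3 ± 1.74 CPM per kb and ranked below Slc38a2 (28.7 ± 6.97) and Slc1a5 (24.6 ± 2.44). At day 14 Slc1a5, Slc7a5 and Slc38a2 again overlapped, at 22.6 ± 2.95, 21.7 ± 5.93 and 20.0 ± 1.49 CPM per kb. Slc16a3 was last in every group. The lengths are those of GENCODE models on GRCm38, and a long annotated UTR lowers a gene on this scale; the annotation used for the counting is not given in the sources used here.

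**Figure D1:**
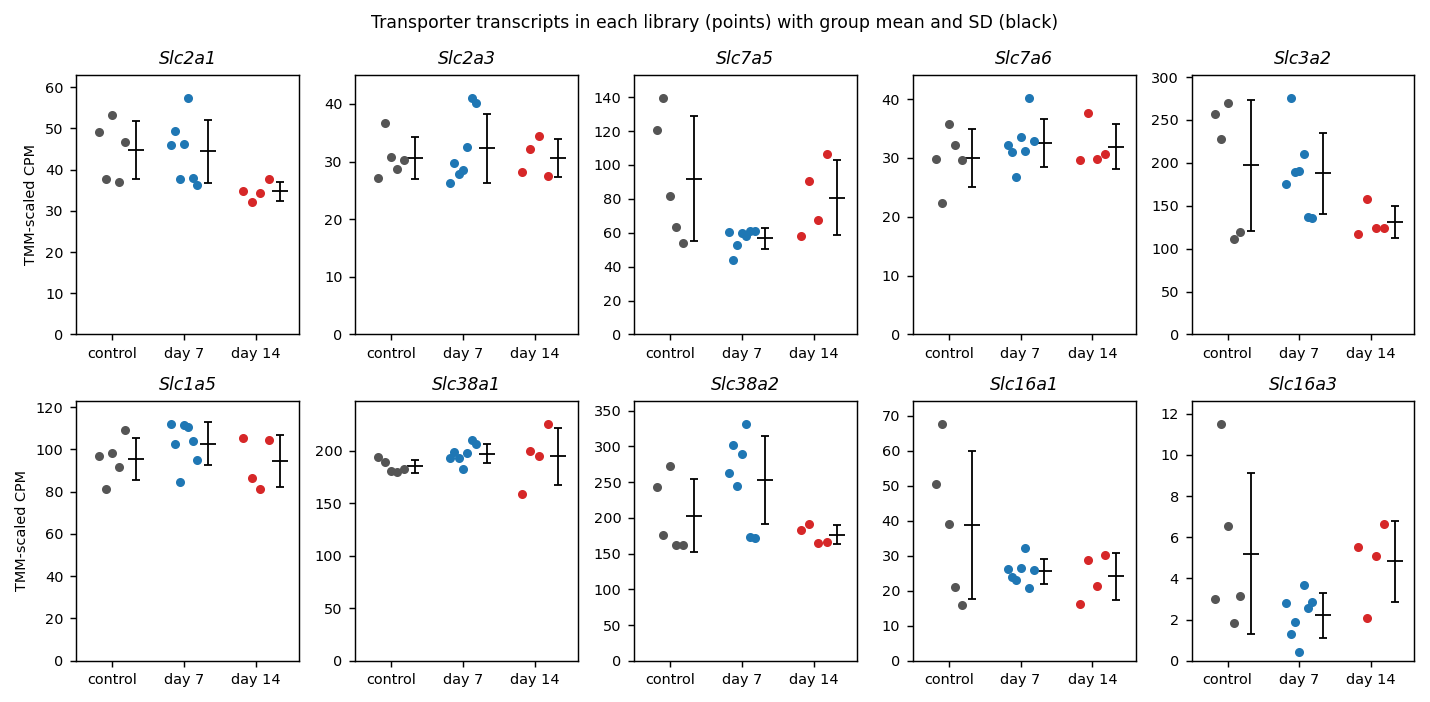
Abundance of the 10 transporter transcripts as TMM-scaled CPM (vertical axes, from 0, one scale per gene) in each control, day 7 and day 14 library (points), with the group mean and SD in black. Groups overlap for every gene; Slc7a5 spans 43.6 to 139.4 CPM and Slc16a3 0.436 to 11.5 CPM, while Slc1a5 and Slc38a1 stay within a narrow band.

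No transporter transcript rose or fell past the threshold in any of the 3 comparisons (edgeR's quasi-likelihood test, Benjamini-Hochberg adjusted p under 0.05 over all genes tested). Between day 7 and control 0 of 10 were called, beside 0.0109% of all genes tested; between day 14 and control 0 of 10, beside 3.13%; and between day 14 and day 7 0 of 10, beside 0.966%. With shares this small, a list of 10 genes would hold few or no calls at the background rate. At an unadjusted p under 0.05 there were 3 of 10 at day 7 against control (Slc7a5, Slc16a1 and Slc16a3; background 21.1%), 3 of 10 at day 14 against control (Slc2a1, Slc3a2 and Slc16a1; background 22.4%) and 5 of 10 at day 14 against day 7 (Slc2a1, Slc7a5, Slc3a2, Slc38a2 and Slc16a3; background 14.8%). No transporter had groups that did not overlap, where 1.97%, 8.08% and 4.55% of all genes did, in the same order of comparisons. limma-voom also called 0 of 10 in each comparison, beside 0.0163%, 5.44% and 1.03% of all genes. DESeq2 called 1 of 10 at day 7 against control, Slc7a5, beside 12.3% of the genes to which it gave an adjusted p, and 0 of 10 at day 14 against control (background 8.42%) and at day 14 against day 7 (background 5.72%).

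The median log2 change of the 10 genes was 0.03 at day 7 against control, -0.15 at day 14 against control and -0.08 at day 14 against day 7. Over all genes tested the medians were 0.07, 0.12 and 0.12, and over genes that averaged 10 CPM or more, to which 9 of the 10 transporters belong, they were -0.03, -0.15 and -0.10. Positive changes were fitted for 5, 2 and 2 of the 10 genes. The comparisons share groups, so their counts are not independent.

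**Figure D2:**
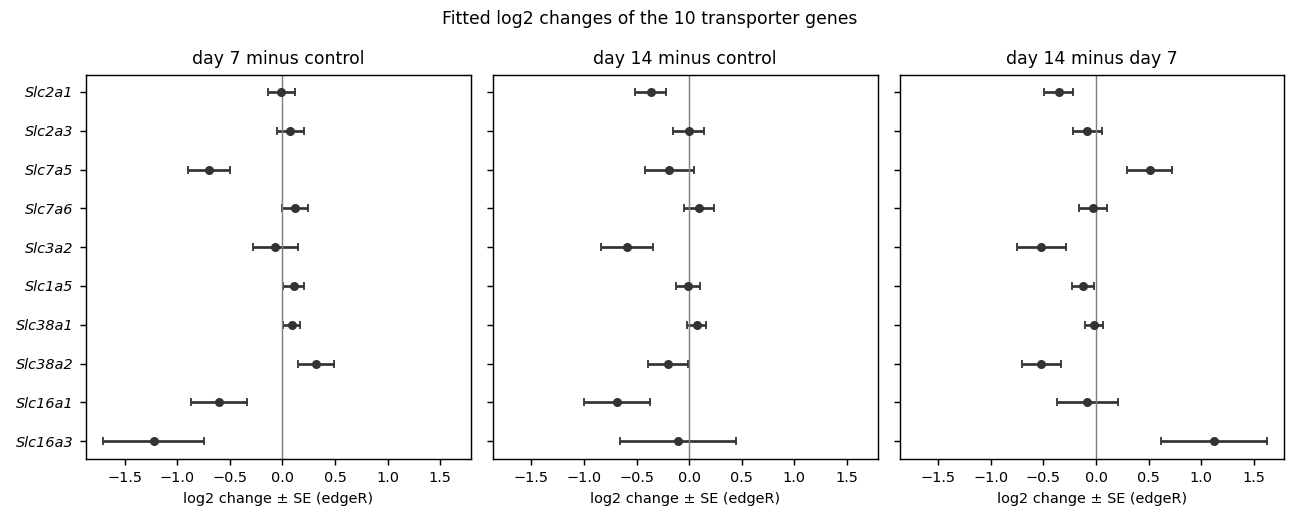
Log2 change of each transporter transcript fitted by edgeR (points), for day 7 minus control, day 14 minus control and day 14 minus day 7. Bars give an SE computed from the F statistic of the test, and the grey line marks 0. The values farthest from 0 are those of Slc16a3 (-1.23 and 1.12), Slc7a5 (-0.70 at day 7) and Slc16a1 (-0.69 at day 14), and none passed the threshold after adjustment.

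Slc2a1 (GLUT1; chr4:119108711-119137983, plus strand), the glucose carrier that activated T cells place on their surface, was measured at 49.2, 37.7, 53.2, 37.0 and 46.7 CPM in control libraries 1 to 5. At day 7 it ran from 36.1 to 57.3 CPM with a median of 46.0, and at day 14 it was 34.9, 32.1, 34.4 and 37.6 CPM. The day 14 libraries lay at the low end of both other groups and overlapped them by their highest library alone. The fitted log2 change was -0.37 ± 0.15 (SE) at day 14 against control (adjusted p = 0.153) and -0.35 ± 0.14 against day 7 (adjusted p = 0.226), with the 4 day 14 libraries between 32.1 and 37.6 CPM and a control range of 37.0 to 53.2 CPM. Between day 7 and control it was -0.01 ± 0.13 (adjusted p = 0.975). Scaling by library totals alone, without TMM, gave -0.16 at day 14 against control and -0.18 against day 7, and leaving out control library 3 gave -0.24 against control.

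Slc2a3 (GLUT3; chr6:122727809-122801640, minus strand), a glucose carrier of higher affinity, was at 27.1, 36.7, 30.8, 28.6 and 30.2 CPM in controls, at 26.4 to 41.0 CPM with a median of 29.7 at day 7, and at 28.1, 32.3, 34.4 and 27.5 CPM at day 14. The 3 groups covered nearly the same range, and the highest values were those of day 7 libraries 6 and 7. Its log2 changes were 0.08 ± 0.13, -0.01 ± 0.15 and -0.08 ± 0.14 for day 7 and day 14 against control and day 14 against day 7 (adjusted p = 0.797, 0.981 and 0.806). Across the 16 libraries Slc2a3 did not follow Slc2a1: Pearson r was -0.28 (permutation p = 0.285, adjusted over 7 pairs 0.499) and Spearman rho -0.13 (permutation p = 0.639, adjusted 0.925), and r was -0.43 without day 7 library 5 and control library 3, which lay farthest from the median of Slc2a1.

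Slc7a5 (LAT1; chr8:121881150-121907694, minus strand), the leucine and large neutral amino acid carrier that Myc and receptor signals raise in T cells, had the widest spread among the amino acid carriers. Its level was 120.4, 139.4, 81.7, 63.7 and 54.0 CPM in control libraries 1 to 5, between 43.6 and 61.2 CPM with a median of 59.7 at day 7, and 58.0, 90.4, 67.5 and 106.5 CPM at day 14. The day 7 libraries were uniform and low, and only control library 5 and day 14 library 1 fell within their range. The log2 change at day 7 against control was -0.70 ± 0.20 (adjusted p = 0.0797), with a mean of 56.6 ± 6.47 CPM (SD, n = 7) against 91.8 ± 36.7 (n = 5). It was 0.51 ± 0.21 at day 14 against day 7 (adjusted p = 0.265) and -0.19 ± 0.23 at day 14 against control (adjusted p = 0.627).

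The day 7 value of Slc7a5 turned on few libraries. DESeq2 gave -0.67 with an adjusted p of 0.016, and leaving out control library 5 gave -0.84 with an edgeR adjusted p of 0.0244, both past the threshold. Without control libraries 1 and 2, the controls with the most dividing-cell and myeloid markers, the change was -0.23 (edgeR adjusted p = 0.568), and among libraries with abundant Xist it was -0.31 (adjusted p = 0.256). At day 14 against control the sign turned, to 0.28 without control libraries 1 and 2 (adjusted p = 0.320). At day 14 against day 7 the change was 0.51 with the compared groups alone (edgeR adjusted p = 0.0550). Without control libraries 1 and 2 it was also 0.51 (edgeR adjusted p = 0.0623). Over 22 alternatives that change ran from 0.34 to 0.66, with adjusted p up to 0.699, and none passed the threshold.

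Slc7a6 (y+LAT2; chr8:106168857-106198706, plus strand), the other light chain, exchanges cationic for neutral amino acids. It was at 29.8, 22.3, 35.7, 32.3 and 29.7 CPM in controls, 26.7 to 40.2 CPM with a median of 32.1 at day 7, and 29.7, 37.6, 29.9 and 30.6 CPM at day 14. Control library 2, the highest for Slc7a5, was the lowest of all 16 libraries for Slc7a6. The log2 changes were 0.12 ± 0.12, 0.09 ± 0.14 and -0.03 ± 0.13 in the order day 7 against control, day 14 against control and day 14 against day 7 (adjusted p = 0.636, 0.700 and 0.938). With a covariate for reads outside gene models, the changes against control were 0.35 at day 7 and 0.45 at day 14 (edgeR adjusted p = 0.208 and 0.574).

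Slc3a2 (CD98 heavy chain; chr19:8706882-8723369, minus strand) carries both light chains to the membrane. Its control libraries read 256.4, 227.5, 270.0, 111.7 and 119.2 CPM, the day 7 libraries ran from 135.9 to 275.4 CPM with a median of 189.3, and the day 14 libraries read 117.6, 158.0, 123.7 and 124.6 CPM. Controls fell into 3 high and 2 low libraries, and the day 14 libraries lay within the span of the controls. The log2 change was -0.59 ± 0.25 at day 14 against control (adjusted p = 0.175) and -0.52 ± 0.23 at day 14 against day 7 (adjusted p = 0.304), with -0.07 ± 0.21 at day 7 against control (adjusted p = 0.895). Without control libraries 1 and 2 the first of these was -0.35 (adjusted p = 0.365), and without control library 3 it was -0.37.

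No relation between the subunits of the leucine carrier passed the test. Over the 16 libraries Slc7a5 and Slc3a2 gave r = 0.19 (permutation p = 0.475, adjusted 0.658) and rho = 0.04 (permutation p = 0.900, adjusted 0.925), and r = -0.23 without control libraries 1 and 2, the farthest from the median of Slc7a5; on deviations from the group means r was 0.42. Slc7a6 and Slc3a2 gave r = -0.16 (permutation p = 0.564, adjusted 0.658) and rho = 0.05 (permutation p = 0.857, adjusted 0.925), and r = 0.14 without control library 2 and day 7 library 6. On the CPM scale, the day 7 libraries held Slc3a2 near the control mean (187.8 ± 47.6 against 196.9 ± 76.0) while Slc7a5 was at the lowest of its group means.

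Slc1a5 (ASCT2; chr7:16781340-16798274, plus strand), a sodium-dependent glutamine exchanger that T cells use on activation, was among the steadiest of the 10. It was at 96.9, 81.2, 98.1, 91.7 and 109.0 CPM in controls, 84.3 to 111.8 CPM with a median of 104.0 at day 7, and 105.4, 86.6, 81.3 and 104.4 CPM at day 14. The groups overlapped over most of their range, and the highest library held 1.38 times the lowest. Log2 changes were 0.11 ± 0.10, -0.01 ± 0.11 and -0.12 ± 0.11 (adjusted p = 0.579, 0.941 and 0.632, in the order used above). Against Slc7a5, whose leucine import is coupled to glutamine that Slc1a5 brings in, r was -0.39 (permutation p = 0.134, adjusted 0.312) and rho -0.46 (permutation p = 0.0777, adjusted 0.272), and r was -0.19 without control libraries 1 and 2.

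Slc38a1 (SNAT1; chr15:96571418-96642913, minus strand), a sodium-coupled importer of glutamine and alanine, had the smallest variance of log2 level. Controls were at 194.6, 189.1, 181.3, 179.9 and 183.0 CPM, day 7 libraries at 182.7 to 210.6 CPM with a median of 197.8, and day 14 libraries at 159.0, 199.6, 195.4 and 225.2 CPM. The day 14 group held both the lowest and the highest library of the 16. Log2 changes were 0.09 ± 0.08, 0.07 ± 0.09 and -0.02 ± 0.09 (adjusted p = 0.573, 0.649 and 0.931).

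Slc38a2 (SNAT2; chr15:96687392-96699730, minus strand), the related importer that cells raise when amino acids run short, behaved otherwise. Its controls read 243.7, 176.2, 272.2, 161.3 and 161.8 CPM, the day 7 libraries ran from 171.2 to 330.5 CPM with a median of 262.9, and the day 14 libraries read 183.6, 191.6, 164.3 and 166.7 CPM. Day 7 libraries 1 to 5 exceeded 244 CPM and day 7 libraries 6 and 7 stood at 173.8 and 171.2, within the range of day 14. The log2 change was -0.52 ± 0.18 at day 14 against day 7 (adjusted p = 0.179), 0.32 ± 0.17 at day 7 against control (adjusted p = 0.295) and -0.20 ± 0.19 at day 14 against control (adjusted p = 0.528). Without control library 3 the last of these was -0.01 and the day 7 change against control 0.50. Among the 10 libraries with abundant Xist, which leave out day 7 libraries 6 and 7 and day 14 libraries 1 and 4, Slc38a2 was called lower at day 14 against day 7 (log2 change -0.67, edgeR adjusted p = 0.0422). This fit, chosen after seeing the data, kept 5 day 7 and 2 day 14 libraries. In that comparison it called 549 of 19152 genes, where the fit of all libraries called 178 of 18430. Slc38a1 and Slc38a2 were unrelated across libraries (r = -0.07, permutation p = 0.800, adjusted 0.800; rho = -0.03, permutation p = 0.925, adjusted 0.925; r = -0.07 also without day 14 libraries 1 and 4).

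Slc16a1 (MCT1; chr3:104638668-104658462, plus strand) moves lactate and pyruvate with a proton in either direction and is a known Myc target. Slc7a5, of the first of the 2 groupings of transporters described further on, had no promoter window. Windows are shown for Slc16a1 of that first grouping and for Slc38a2 of the second. Each is the 250 bases before the annotated start in RefSeq, build GRCm38.p6, read 5′ to 3′ on the gene's strand, with Slc16a1 at chr3:104638414-104638663 (plus strand) and Slc38a2 at chr15:96699729-96699978 (minus strand). Capitals mark the E-box letters CACGTG, the motif bound by Myc and Max.
Slc16a1: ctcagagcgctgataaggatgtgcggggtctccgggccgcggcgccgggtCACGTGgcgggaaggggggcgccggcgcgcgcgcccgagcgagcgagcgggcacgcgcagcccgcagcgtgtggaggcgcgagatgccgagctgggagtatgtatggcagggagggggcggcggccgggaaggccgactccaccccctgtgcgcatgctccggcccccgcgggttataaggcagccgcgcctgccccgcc
Slc38a2: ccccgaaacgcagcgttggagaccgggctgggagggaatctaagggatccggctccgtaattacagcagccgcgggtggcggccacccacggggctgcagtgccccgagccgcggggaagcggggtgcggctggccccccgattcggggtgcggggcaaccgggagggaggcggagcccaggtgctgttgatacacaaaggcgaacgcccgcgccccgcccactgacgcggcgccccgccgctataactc
The table of promoter windows held 6 of the 10 genes. Both strands were searched. CACGTG was found in the window of Slc16a1 alone among them, and in 6.02% of 32851 mouse windows of that length. ACGTG, the core of the hypoxia response element, which also lies within CACGTG, was found for Slc16a1, Slc16a3, Slc2a1, Slc3a2 and Slc7a6 and in 16.6% of windows. TGATGNAA, the core of the amino acid response element bound by Atf4, was in none of the windows of these genes and in 3.45% of all; the element known for Slc38a2 lies in an intron, outside the window. These matches describe letters in a window, not binding.

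Slc16a1 varied more than any member but Slc16a3. Control libraries 1 to 5 were at 50.5, 67.5, 39.0, 21.1 and 15.9 CPM, the day 7 libraries at 20.8 to 32.2 CPM with a median of 26.0, and the day 14 libraries at 16.1, 28.8, 21.2 and 30.3 CPM. Control libraries 1, 2 and 3 lay above every tumour library and control library 5 below all of them. The log2 change was -0.60 ± 0.27 at day 7 against control (adjusted p = 0.198), -0.69 ± 0.31 at day 14 against control (adjusted p = 0.202) and -0.08 ± 0.29 at day 14 against day 7 (adjusted p = 0.909). Without control library 5 the day 7 change was called (-0.80, edgeR adjusted p = 0.0421). Without control libraries 1 and 2 it was 0.01 (adjusted p = 0.985) and the day 14 change against control -0.07 (adjusted p = 0.854); without control library 2 alone they were -0.31 and -0.39.

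Slc16a3 (MCT4; chr11:120948480-120960868, plus strand), the lactate exporter of strongly glycolytic cells, was the least abundant of the 10. Controls read 3.00, 11.5, 6.54, 1.85 and 3.14 CPM, the day 7 libraries 0.436 to 3.68 CPM with a median of 2.58, and the day 14 libraries 5.52, 2.07, 5.09 and 6.65 CPM, from 10 to 254 reads a library. Control library 2 was the highest and 3 of 4 day 14 libraries exceeded every day 7 library. The log2 change was -1.23 ± 0.48 at day 7 against control (adjusted p = 0.143), 1.12 ± 0.50 at day 14 against day 7 (adjusted p = 0.304) and -0.11 ± 0.55 at day 14 against control (adjusted p = 0.913). Without control libraries 1 and 2 the first was -0.79 (adjusted p = 0.517), and without control library 2 alone -0.71. The last was -0.84 with a covariate for reads outside gene models and 0.41 without control library 2. Slc16a1 and Slc16a3 gave r = 0.41 (permutation p = 0.112, adjusted 0.312) and rho = 0.32 (permutation p = 0.220, adjusted 0.513), with r = 0.11 without control libraries 1 and 2.

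Bsg (basigin), the chaperone of both lactate transporters, was the only partner whose correlation passed the threshold. Slc16a1 and Bsg gave r = 0.73 (permutation p = 0.00161, adjusted over 7 pairs 0.0113) and rho = 0.53 (permutation p = 0.038, adjusted 0.266). The relation rested on control libraries 1 and 2, without which r was 0.32. Bsg was at 146.3, 198.9, 107.3, 99.7 and 110.7 CPM in controls, 63.1 to 102.3 CPM with a median of 83.7 at day 7, and 63.0, 117.1, 77.3 and 116.8 CPM at day 14. Its log2 change at day 7 against control was -0.66 ± 0.18 (adjusted p = 0.0777) and at day 14 against control -0.50 ± 0.21 (adjusted p = 0.178).

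**Figure D3:**
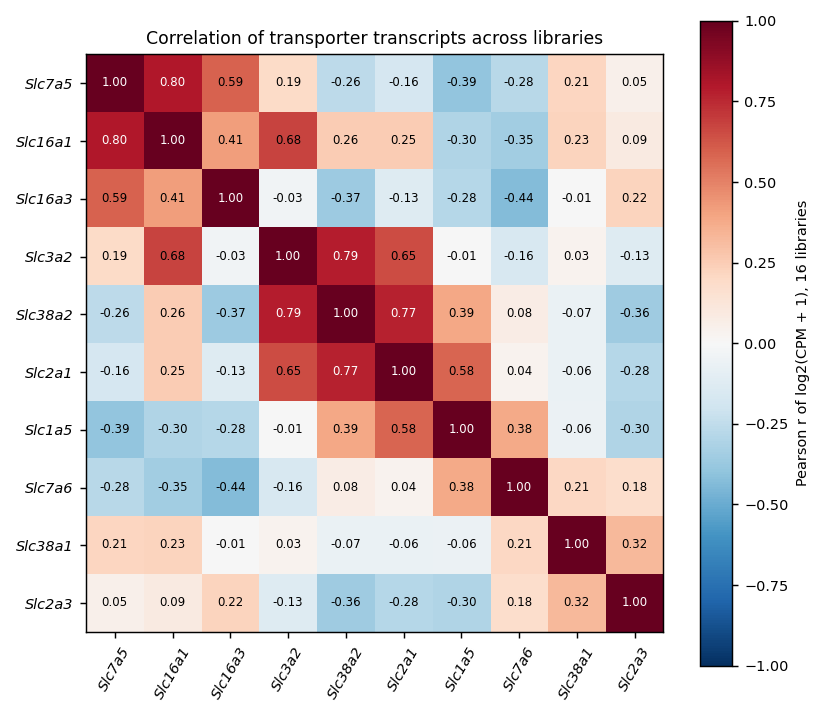
Pearson r between the log2(CPM + 1) levels of each pair of transporter transcripts over the 16 libraries, from -1 (blue) to 1 (red). Slc7a5 and Slc16a1 (0.80) form one block and Slc3a2, Slc38a2 and Slc2a1 (0.65 to 0.79) another, joined by Slc16a1 with Slc3a2 (0.68).

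Of the 45 pairs, the highest coefficients (r = 0.80, 0.79 and 0.77) fell in the 2 blocks seen in the plot of pairwise correlations. The blocks were picked after their values were seen and are given without a test. The first held Slc7a5 and Slc16a1 (r = 0.80, rho = 0.59; 0.50 without control libraries 1 and 2; 0.91 on deviations from the group means). Slc7a5 followed the dividing-cell marker Mki67 with r = 0.91 and rho = 0.88 (r = 0.82 without control libraries 1 and 2), and Slc16a1 followed it with r = 0.67 and rho = 0.44 (r = 0.26 without them). Mki67 was at 1380, 3252, 357, 263 and 190 CPM in control libraries 1 to 5, at 126 to 495 CPM with a median of 196 at day 7, and at 266, 915, 759 and 1461 CPM at day 14. So the libraries with most Slc7a5, namely 2 controls (1 and 2) and 2 of the day 14 group (2 and 4), were also the 4 with most Mki67. None of the 10 dividing-cell markers was called by edgeR in any comparison. At day 7 against control all 10 had a negative change (median -1.86) and an unadjusted p under 0.05 (background 21.1%). At day 14 against day 7 all 10 had a positive change (median 1.67) and an unadjusted p under 0.05 (background 14.8%). At day 14 against control the median was -0.15. The part of dividing or myeloid cells in the levels of these transporters was not tested.

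The second block held Slc3a2, Slc38a2 and Slc2a1. Here r was 0.79 for Slc3a2 with Slc38a2, 0.77 for Slc2a1 with Slc38a2 and 0.65 for Slc2a1 with Slc3a2 (rho = 0.80, 0.61 and 0.68). The blocks were not separate. Slc16a1 of the first followed Slc3a2 with r = 0.68 and rho = 0.70 (r = 0.63 without control libraries 1 and 2). Slc38a2 fell into an upper set of 7 libraries, at 243.7 to 330.5 CPM (control libraries 1 and 3 and day 7 libraries 1 to 5), and a lower set of 9, at 161.3 to 191.6 CPM. Within these sets the r of Slc3a2 with Slc38a2 was 0.10 and 0.46, and that of Slc2a1 with Slc38a2 was 0.67 and -0.62, in the order upper and lower. Sets drawn on Slc38a2 itself narrow its range, so r within them is not comparable with r over all libraries. Why r was negative within a set was not tested. Atf4, the transcription factor of the amino acid response, followed Slc38a2 with r = 0.93 and rho = 0.93, and with r = 0.70 and 0.86 within the upper and lower sets. It followed Slc3a2 with r = 0.64, but with -0.49 and 0.45 within the sets. With Slc2a1 its r was 0.58 and rho 0.50, and r was 0.0035 and -0.62 within the upper and lower sets. Of the 9 libraries of the lower set, 5 had little Xist, as had control library 1 of the upper set; what else separates the libraries was not tested.

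**Figure D4:**
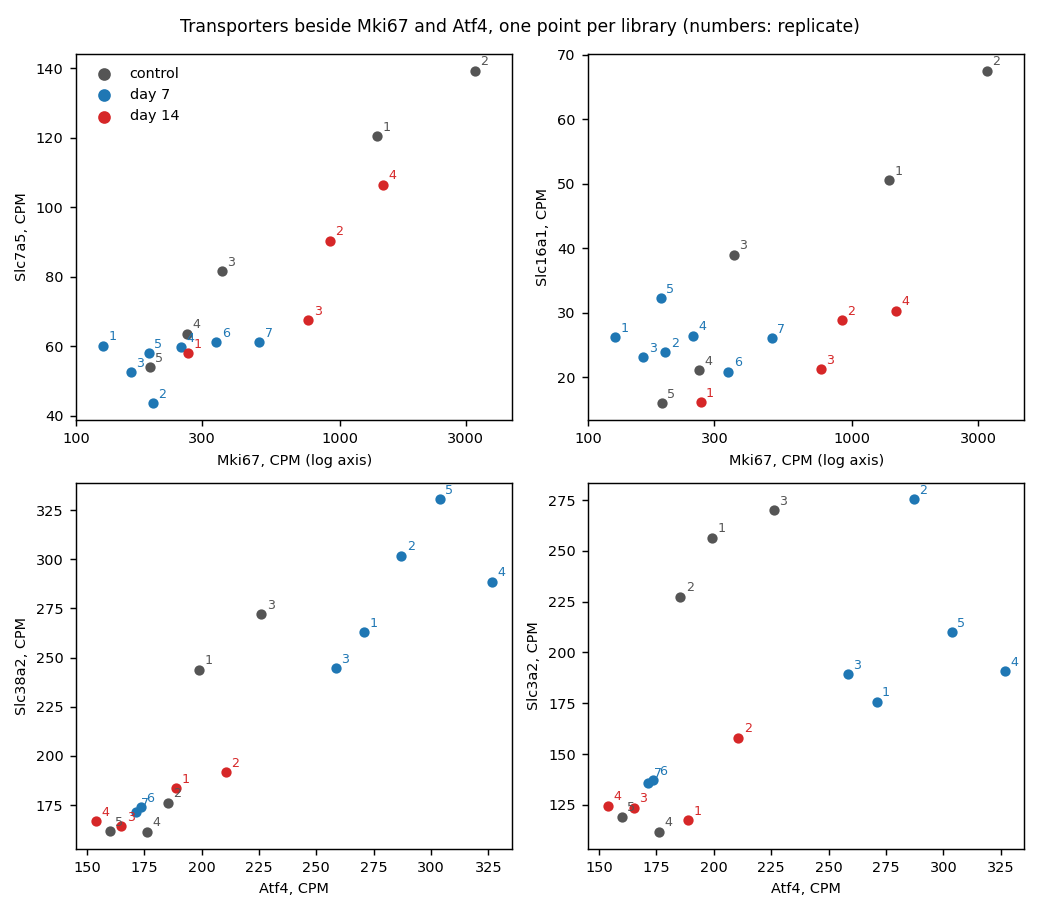
Level of Slc7a5 and Slc16a1 against Mki67 (log axis) and of Slc38a2 and Slc3a2 against Atf4, all as TMM-scaled CPM, with one numbered point per library coloured by group. Slc7a5 is highest where Mki67 is highest (control 2, 139.4 and 3252 CPM), and Slc38a2 separates into libraries below 192 and above 243 CPM, with day 7 libraries 6 and 7 in the lower set.

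A ratio of related transporters within a library does not depend on scaling between libraries. The log2 ratio of Slc7a6 to Slc7a5 reads was -1.54 ± 0.764 (SD) over the 5 controls, -0.80 ± 0.179 over the 7 day 7 libraries and -1.30 ± 0.355 over the 4 day 14 libraries. The differences of 0.74 at day 7 against control (exact permutation p = 0.0202) and -0.50 at day 14 against day 7 (exact permutation p = 0.0121) did not pass after adjustment over the 12 ratio tests (both 0.121). The first was 0.46 without control library 2 and 0.21 without control libraries 1 and 2, and the second -0.34 without day 14 library 4; controls 4 and 5, at -0.98 and -0.86, lay at or within the day 7 range. Slc7a6 was thus nearest to Slc7a5 in the day 7 libraries, which spanned -0.98 to -0.49, while controls reached -2.64.

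For the lactate transporters, the log2 ratio of Slc16a3 to Slc16a1 was -3.00 ± 0.741 in controls, -3.73 ± 1.01 at day 7 and -2.39 ± 0.969 at day 14. The difference of 1.34 between day 14 and day 7 had an exact permutation p of 0.0364 and an adjusted p of 0.145. Slc2a3 to Slc2a1 stood at -0.54 ± 0.335, -0.46 ± 0.424 and -0.19 ± 0.231, and Slc38a2 to Slc38a1 at 0.09 ± 0.343, 0.32 ± 0.427 and -0.13 ± 0.274, in controls, day 7 and day 14. The smallest exact permutation p for these last ratios was 0.0909 (adjusted 0.273), for Slc38a2 to Slc38a1 at day 14 against day 7. All tests were 2-sided.

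**Figure D5:**
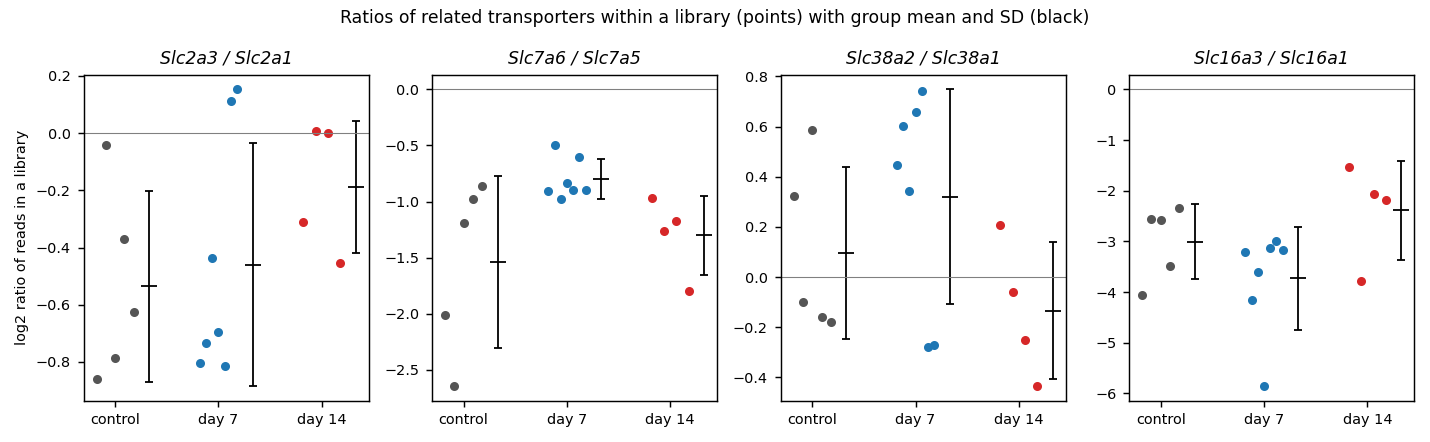
Log2 ratio of reads of paired transporters within each library (points; vertical axis) in control, day 7 and day 14 groups, with the group mean and SD in black and a grey line at 0, where the reads are equal. The Slc7a6 to Slc7a5 ratio of the day 7 libraries spans -0.98 to -0.49, against -2.64 to -0.86 in controls.

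The calls in the lists of related genes are read against the share of all genes called by edgeR, which was 0.0109% at day 7 against control, 3.13% at day 14 against control and 0.966% at day 14 against day 7; the shares at an unadjusted p under 0.05 were 21.1%, 22.4% and 14.8%. None of 21 further sugar transporters was called by edgeR in any comparison, with 3, 3 and 1 at an unadjusted p under 0.05 for day 7 against control, day 14 against control and day 14 against day 7. Positive changes were fitted for 19 of the 21 at day 14 against control, with a median of 1.14, but 11 of the 21 had a mean under 1 CPM and the 4 with at least 10 CPM had a median of 0.29. Reads that fell outside gene models also made up more of the tumour libraries, with 54.4% to 69.8% at day 14 and 54.6% to 68.0% at day 7 against 47.1% to 56.7% in controls; its part in these low values was not tested. The most abundant of the list, the sugar transporter Slc50a1, was at 44.5 ± 5.08, 54.0 ± 3.50 and 48.3 ± 11.1 CPM in controls, day 7 and day 14 (log2 change 0.28 ± 0.12 at day 7 against control, adjusted p = 0.174).

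Among 42 further amino acid transporters, 1 was called, Slc7a10, a light chain that pairs with Slc3a2 and carries small neutral amino acids. It was at 0.449, 1.40, 0.199, 0.752 and 0.0859 CPM in controls, 0.394 to 1.93 CPM with a median of 1.07 at day 7, and 4.14, 2.07, 5.61 and 3.08 CPM at day 14, where all 4 libraries lay above every other library. Its log2 change at day 14 against control was 2.68 ± 0.70 (adjusted p = 0.0451), from few reads; its exons overlap those of Lrp3 on the other strand, and the strand setting of the counting is not given in the sources used here. The median change of the list at day 14 against control was 0.67, and 0.03 for its 10 genes with at least 10 CPM. None of 18 further monocarboxylate transporters and chaperones was called, with 4, 4 and 2 at an unadjusted p under 0.05. Their 7 genes with at least 10 CPM all had a negative change at day 14 against control, with a median of -0.37 beside -0.15 for all genes of that abundance. Emb, the other chaperone of Slc16a1, was at 251.3 ± 27.4, 249.6 ± 35.5 and 204.5 ± 24.1 CPM (adjusted p = 0.177 at day 14 against control).

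Of 21 regulators of these transporters, 2 rose at day 14 against control and 1 fell at day 14 against day 7. Mlxip (MondoA), which senses glucose-derived sugars, rose by 0.68 ± 0.14 on the log2 scale (adjusted p = 0.0221), from 211.9 ± 21.9 to 340.1 ± 92.4 CPM, and Tbc1d4 (AS160), which holds glucose transporters inside the cell, rose by 0.76 ± 0.20 (adjusted p = 0.0487), from 96.5 ± 13.2 to 163.8 ± 50.5 CPM. Nedd4l, a ubiquitin ligase that marks membrane transporters for removal, fell by 0.59 at day 14 against day 7 (SE 0.11, adjusted p = 0.0208), from 61.2 ± 8.15 to 40.7 ± 2.00 CPM. Of 36 tested genes that carry amino acid supply to mTORC1, 2 fell at day 14 against control: Sesn1, of the Sestrin family that restrains mTORC1 when leucine is short, by 0.55 (SE 0.13, adjusted p = 0.0299) and Lamtor2, a subunit of the lysosomal Ragulator scaffold, by 0.74 (SE 0.18, adjusted p = 0.0387). Sesn1 also fell by 0.55 against day 7 (adjusted p = 0.0348), with 105.7, 120.3, 119.7 and 90.9 CPM at day 14 and 150.3 to 170.2 CPM at day 7. None of these lists held a call between day 7 and control by edgeR, with 10 of 42, 6 of 21 and 11 of 36 genes of the amino acid, regulator and mTORC1 lists at an unadjusted p under 0.05.

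Among 23 enzymes that first act on the imported cargo, Glud1, which turns glutamate into 2-oxoglutarate, fell by 0.49 at day 14 against control (SE 0.10, adjusted p = 0.0172), from 204.6 ± 6.28 to 145.9 ± 20.1 CPM. Bcat2, the mitochondrial aminotransferase of leucine, isoleucine and valine, fell by 0.64 at day 14 against day 7 (SE 0.14, adjusted p = 0.0348), from 29.2 ± 4.46 to 18.8 ± 1.68 CPM; an antisense gene overlaps its exons. The other enzymes did not pass. At an unadjusted p under 0.05 there were 10, 6 and 11 of the 23 in the 3 comparisons, beside the background of 21.1%, 22.4% and 14.8%. Positive changes were fitted for 7, 8 and 18 of the 23, with medians of -0.33, -0.11 and 0.30, in the same order. Of the 13 enzymes with at least 10 CPM, 9 had a positive change at day 14 against day 7. Their median was 0.11, beside -0.10 for all genes of that abundance.

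Markers of other cell types were called by edgeR too. Cd79a, S100a9, S100a8 and Ngp were lower at day 14 against control (adjusted p = 0.0275, 0.0417, 0.0441 and 0.0487). S100a9, S100a8 and Ngp were at 92.7, 117 and 23.3 CPM in control library 1 and at 396, 549 and 148 in control library 2. The other controls did not exceed 7.53, 7.57 and 1.75 CPM, and day 14 libraries 2.37, 2.96 and 1.32. Mpo of the same list had a positive change at day 14 against control (0.59, adjusted p = 0.789). Elane and Mpo were higher at day 14 against day 7 (adjusted p = 0.0437 and 0.0439). In day 14 library 4 they were at 146.3 and 1226 CPM, against at most 6.74 and 36.1 in the rest of that group. These marker calls were not followed under the alternatives. The 9 calls on 8 genes in the transporter, regulator, mTORC1 and enzyme lists rested on the fit. All kept their direction under every alternative run, but each was lost under 6 or more alternatives. The 6 at day 14 against control (Slc7a10, Mlxip, Tbc1d4, Sesn1, Lamtor2 and Glud1) were all lost with the compared groups alone (adjusted p from 0.0970 for Glud1 to 0.179 for Sesn1), with a covariate for reads outside gene models and with the replicate block. With the compared groups alone the 6 log2 changes stayed close, at 2.73 for Slc7a10, 0.70 for Mlxip, 0.77 for Tbc1d4, -0.54 for Sesn1, -0.73 for Lamtor2 and -0.48 for Glud1. With the covariate they were 1.48, 0.42, 0.74, -0.37, -0.30 and -0.36, in the same order. Leaving out day 14 library 1 ended all 9 calls, which then rested on 3 day 14 libraries, with the same 6 changes at 2.73, 0.52, 0.89, -0.53, -0.56 and -0.40; leaving out day 14 library 3 or 4 ended 8 each.

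The genes most like the 3 most variable transporters were found by Pearson r of log2(CPM + 1) over the 16 libraries, among 8109 tested genes that averaged 10 CPM or more. For Slc7a5 they included Uck2 and Hist1h3e (r = 0.95 each), and without control libraries 1 and 2 their r was 0.88 and 0.91. For Slc16a1 they were Umps (0.95), Hdlbp (0.94) and Mcm4 (0.93), with 0.88, 0.83 and 0.82 without those libraries. Uck2 and Umps act in pyrimidine synthesis, Mcm4 in DNA replication, Hist1h3e encodes a histone and Hdlbp an RNA-binding protein. For Slc16a3 the highest were Dhrs11 (0.80), Haus5 (0.77) and Rpap3 (0.76), from a gene with few reads. These coefficients are descriptions of 16 libraries that share the marker differences given above.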

How the data were processed

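The values deposited by the authors were raw counts of reads per gene in 16 libraries, without normalization; columns were matched to samples by the code in each sample's description. Per the submitters' processing notes, the build was mm10 and the tools included HTSeq 0.6.1, cutadapt 1.8.1 and bcl2fastq 2.20.0.422; the aligner, annotation and strand setting are not given in the sources used here. The 5 lines that name no gene stayed out of library sizes and tests.

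Genes that passed filterByExpr were fitted over all 16 libraries with edgeR 4.0.16 (TMM scaling, quasi-likelihood test, Benjamini-Hochberg threshold 0.05) in R 4.3.3. Alternatives were RLE and total scaling, other filters, DESeq2 1.42.0, limma 3.58.1 (voom), fits of the compared groups, a covariate for reads outside gene models, a replicate block, leaving out libraries, and, chosen after seeing the data, libraries with abundant Xist. The fit was tested on simulated counts drawn independently for each library. These held no libraries that deviate together over many genes, so that test does not cover such libraries. Ratios used reads + 0.5 and exact permutation tests; correlations used log2(CPM + 1) and 100000 permutations. CPM were computed here.

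The members and lists were chosen with earlier results of these data known. Named from the 12 other lists were the called genes, up to 3 per comparison, or else the most abundant gene; Bsg, Mki67 and Atf4 beside them, and the 3 genes most like each of the 3 most variable transporters, of which 1 is not reported here. Of 216 listed genes 213 were found. Replicates were separate mice by the study's description; replicate numbers did not pair them. SDs and SEs cover the spread between libraries.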

Additional observations from a re-analysis of the deposited data

Results flagged for a closer look

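In day 14 library 2, Slc7a6 was at 37.6 CPM, while the nearest of the other 3 day 14 libraries was at 30.6 CPM, a gap of 0.885 of the group's range. Of the 30 groups of values checked (10 genes in 3 groups), this was the only one in which the highest or lowest library stood so far apart, and chance gives such a gap in about 1 in 20 groups.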

How the results depend on the processing

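The number of genes called moved with the settings. At day 7 against control, 2 genes were called by edgeR (3890 at an unadjusted p under 0.05); DESeq2 called 1603, the compared groups alone 4, a covariate for reads outside gene models 0, the replicate block 35, the fit without control libraries 1 and 2 0 and libraries with abundant Xist 280, and leaving out 1 library gave 0 to 1455, the highest without control replicate 5. At day 14 against control, 577 were called (246 higher, 331 lower); no expression filter gave 381, DESeq2 1551, limma-voom 1003, the compared groups 4, the covariate 1, the replicate block 46, no control libraries 1 and 2 942, abundant Xist 223, and leaving out 1 library 65 (day 14 replicate 3) to 1458 (day 14 replicate 2). Its split was 289 higher and 250 lower with RLE scaling and 699 higher and 100 lower with library totals, where the median change of all genes was 0.32 in place of 0.12. At day 14 against day 7, 178 were called; DESeq2 gave 707, the compared groups 712, the covariate 85, the replicate block 28, no control libraries 1 and 2 838, abundant Xist 549, and leaving out 1 library 25 (day 14 replicate 3) to 377 (day 14 replicate 2). The cause of these shifts was not tested. Of the transporters, DESeq2 called 1 at day 7 (Slc7a5, -0.67), leaving out 1 library gave 0 to 2 (Slc7a5 and Slc16a1 without control replicate 5) and abundant Xist gave 1 at day 14 against day 7 (Slc38a2, -0.67); the other alternatives called 0. The replicate block called none of the 10 in any comparison, and same-numbered libraries did not deviate together (13 pairs, r from -0.34 to 0.30, 3 over 0.1). Fitted changes turned sign in 24 of 230, 37 of 200 and 21 of 220 values over the alternatives, in the order day 7 against control, day 14 against control and day 14 against day 7, and no value of opposite sign passed the threshold. The correlation of Slc16a1 with Bsg was 0.32 without control libraries 1 and 2, no longer past the threshold. Slc16a3 rested on 10 to 254 reads a library; with 4 day 14 libraries, small changes may go unseen.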
